A study of Mus musculus with 12 samples.

Results

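The 35 genes described here encode the enzymes of glycolysis and gluconeogenesis, together with the glucose carriers *Slc2a1* and *Slc2a2*, the PFKFB regulators of the pathway, the fructose kinase *Khk* and the gene pair *Pdk1* and *Pdha1* at the entry of pyruvate into the mitochondrion. They were chosen by gene symbol, taking the row with the highest count for a symbol, and all 35 were found among the 35275 genes of the count table, with 1 row each. RNA sequencing was carried out on kidney tissue from 12 mice on the C57BL/6J background, all aged 6 months, with 4 mice in each of 3 groups and 2 males and 2 females per group. WT mice carried normal *Pkd1* and *Casp1*. RC/RC mice were homozygous for the RC allele of *Pkd1*, a knock-in missense allele with reduced function that gives a slowly progressive polycystic kidney disease. RC/RC:*Casp1*KO mice were homozygous for the same *Pkd1* allele and for Del3, a germline deletion made with TALENs in exon 6 of *Casp1* that takes away the codon of the catalytic cysteine and a splice donor, so that both alleles were present in every cell of the kidney. The study compared these groups to ask which pathways change in cystic kidneys and which change when caspase-1 is missing.

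Glycolysis splits glucose into pyruvate, and gluconeogenesis runs the same road backwards with its own enzymes at the irreversible steps. In the kidney these programs are divided among cell types. The proximal tubule makes glucose from lactate and glutamine and uses little of it, whereas distal segments burn glucose, and cyst-lining cells in polycystic kidney disease are known for raised aerobic glycolysis. Many steps can be catalysed by more than one isozyme, so a change in a step can lie in which isozyme is made rather than in the total.

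The counts summed to between 20556335 and 22656309 reads in the WT mice, between 18019819 and 24284831 in the RC/RC mice and between 18738755 and 24869454 in the RC/RC:*Casp1*KO mice. Values per mouse are given below as CPM, read counts scaled by normalised library size, in the order WT2, WT3, WT4 and WT6 for WT mice, RC105, RC139, RC140 and RC143 for RC/RC mice and KO42, KO60, KO70 and KO105 for RC/RC:*Casp1*KO mice. The count columns carry these mouse numbers but no sex, so whether any difference within a group follows sex was not tested. Fold changes are on the log2 scale from edgeR's quasi-likelihood test with its standard error (SE), and adjusted p-values (Benjamini-Hochberg over all genes tested) at or above 0.05 are reported as not passing. The samples are bulk kidney tissue, in which fewer cells of a type and less RNA per cell cannot be told apart.

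*Casp1* was examined first as a check of the labels. WT mice held 2.05, 1.29, 1.31 and 1.41 CPM of *Casp1*, RC/RC mice 3.33, 3.86, 4.24 and 2.62, and RC/RC:*Casp1*KO mice 0.665, 0.382, 1.06 and 0.667. Every RC/RC:*Casp1*KO mouse was below every mouse of both other groups, and every RC/RC mouse was above every WT mouse. *Casp1* was 5.09-fold lower in RC/RC:*Casp1*KO than in RC/RC kidneys (log2 fold change -2.35, SE 0.324, adjusted p = 0.00514) and was higher in RC/RC than in WT kidneys (1.21, SE 0.254, adjusted p = 0.0142). Its difference in RC/RC:*Casp1*KO against WT did not pass (-1.12, SE 0.345, adjusted p = 0.128). The counts are per gene, so where in *Casp1* the remaining reads lay was not tested. *Pkd1* averaged 53.0 ± 13.8 CPM in WT, 55.2 ± 9.85 in RC/RC and 71.6 ± 12.6 in RC/RC:*Casp1*KO (SD, n = 4) and passed in no comparison, and as a missense allele is not expected to change its own read count, it does not check the labels.

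Single libraries stood apart in 2 respects. Mouse RC139 held 1358 CPM over the 5 adipocyte marker genes, most of it from *Cfd* (adipsin), against 0.306, 0.430 and 141 in the other RC/RC mice and at most 55.1 in any other mouse. Mouse KO70 held 169 CPM over the 5 markers of injured tubule (most abundant *Lcn2*), against 31.7, 33.4 and 49.1 in the other mice of its group and 152 to 248 in RC/RC. Mice of 1 group also differed from each other unevenly, by a chi-square of their counts over genes divided by its degrees of freedom. It was 17.7 between mice WT2 and WT3 and 16.4 between WT4 and WT6, but 89.8 to 127 in the other WT pairs. For RC/RC:*Casp1*KO it was 15.7 between KO60 and KO105 and 31.8 between KO42 and KO70, against 67.1 to 93.4 in the other pairs, and in RC/RC it ran from 37.2 (RC140 and RC143) to 128. *Hk1* lay on this division in WT, at 201 and 200 CPM in WT2 and WT3 and 121 in both WT4 and WT6, and so among others did *Slc2a1*, *Fbp2* (52.2, 39.9, 13.9 and 17.8 CPM in the order of mice) and, of the genes described as called below, *Pfkm*, *Eno1* and *Pfkfb2*. In RC/RC:*Casp1*KO *Hk1* was at 189 and 164 CPM in KO60 and KO105 and at 107 and 123 in KO42 and KO70. These differences enter the spread behind every test below, and no sex was assigned to a mouse from them. Where a call of the 35 genes changed without either library, the value without it is given.

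Per kilobase of transcript, *Gapdh* had the highest level of the 35 genes in WT kidneys, at 1326 ± 88.0 FPKM (SD, n = 4), computed from the counts and the deposited gene lengths. The lactate dehydrogenase subunit *Ldhb* followed at 905 ± 166 FPKM, and then the gluconeogenic genes *Pck1* (833 ± 394) and *Fbp1* (695 ± 89.3) and the aldolase *Aldoa* (681 ± 135). The ranges of these 4 genes over the WT mice overlapped, so their order is not separated by the spread, and 1 WT mouse had as much *Pck1* as the highest had *Gapdh*. In all, 15 of the 35 genes were at or above 100 FPKM in WT kidneys, 9 lay between 10 and 100, 6 between 1 and 10, and 5 (*Hk2*, *Hk3*, *Eno1b*, *Eno2* and *Pfkfb1*) were below 1. *Hk2* was the lowest, at 0.169 ± 0.0774 FPKM, with 11 to 29 reads per WT mouse. For each gene the highest mouse exceeded the lowest of its group by a median of 1.55-fold in WT, 1.60-fold in RC/RC and 1.51-fold in RC/RC:*Casp1*KO, which sets the scale against which the differences below stand. *Tpi1* varied least among WT mice (1.06-fold) and *Fbp2*, a fructose bisphosphatase best known from muscle, varied most (3.75-fold).

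**Figure D1:**
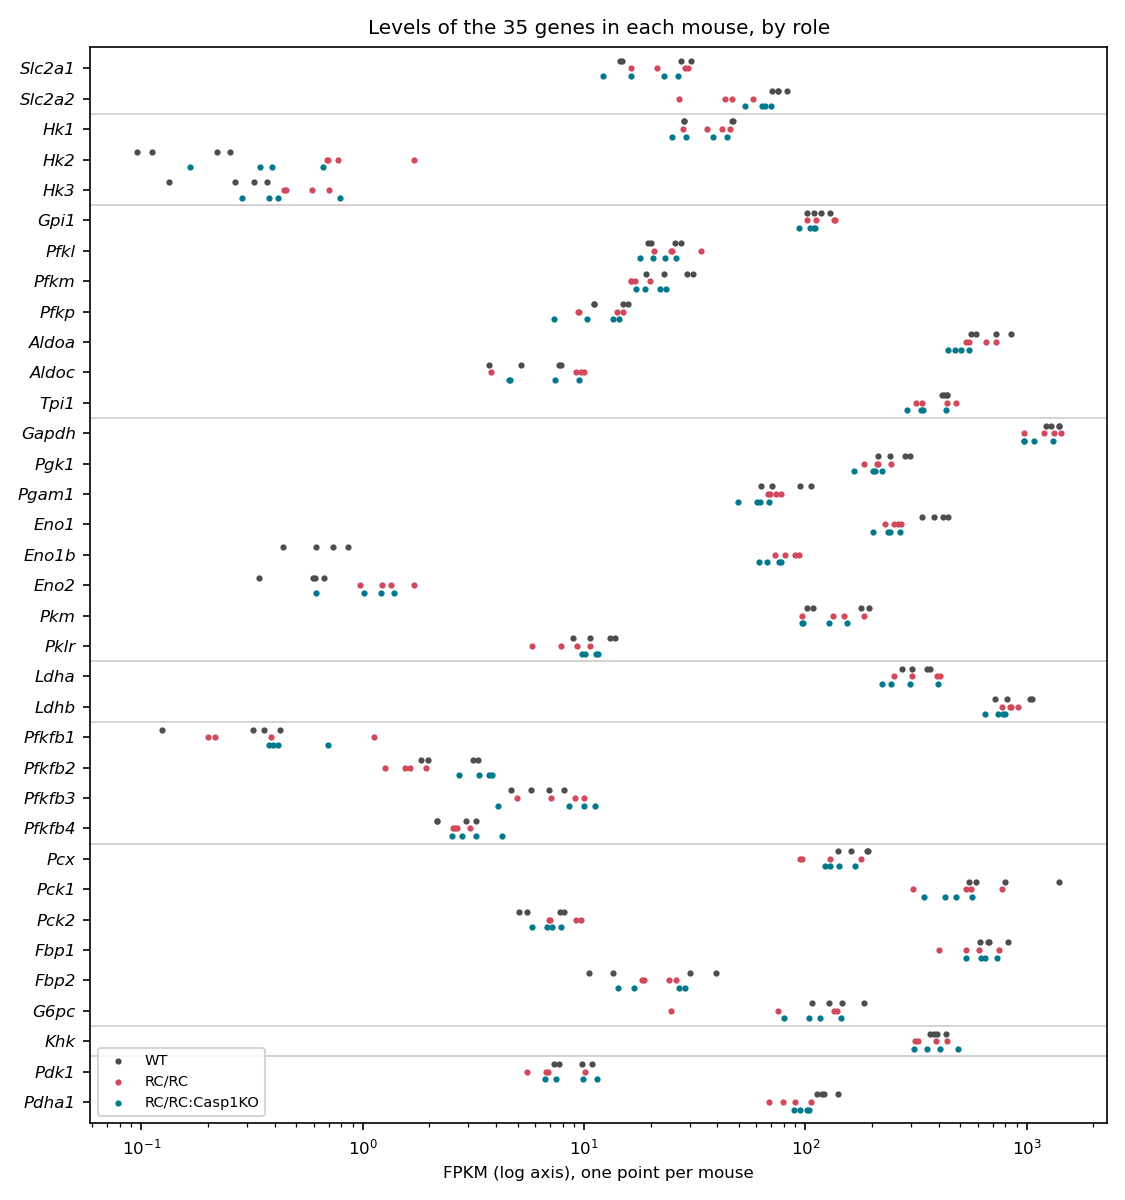
Level of each of the 35 genes in FPKM (log scale) in the 12 mice, ordered by role in the pathway, with 1 point per mouse coloured by group. The genes span from under 1 FPKM (*Hk2* in WT) to over 1000 FPKM (*Gapdh*), and *Eno1b* is the gene whose WT points stand farthest from those of both RC/RC groups.

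In RC/RC against WT kidneys, 3 of the 35 genes rose (*Hk2*, *Eno1b* and *Eno2*), 3 fell (*Slc2a2*, *Pfkm* and *Eno1*) and 29 did not pass. Over all 15243 genes tested, 12.9% passed, 9.76% as higher and 3.18% as lower, so that the 35 genes had a share of calls close to that of all genes. The groups did not overlap for 4 genes that were higher and 3 that were lower in RC/RC, beside 19.6% of all genes tested without overlap in either direction. The median log2 fold change was -0.11 over the 35 genes and -0.02 over all genes, with 14 positive and 21 negative values. Without mouse RC139 the counts were 2 higher and 2 lower, and 1 was lower without mouse WT2, WT3 or WT6 or mouse RC140. Of all genes that passed, 75.4% were higher in RC/RC, a share of 86.1% when libraries were scaled on their size alone and 55.8% with a trend over gene length removed.

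In RC/RC:*Casp1*KO against RC/RC kidneys, 1 gene rose (*Pfkfb2*), none fell and 34 did not pass. Of the 15428 genes tested in this comparison 11.6% passed, 7.23% as higher and 4.41% as lower. At an unadjusted p below 0.05, 2 of the 35 genes were higher and 1 lower by edgeR, and DESeq2 called 1 lower (*Hk2*). Of all genes tested here, 4889 of 15428 had an unadjusted p below 0.05. The same counts were 4457 of 15243 in RC/RC and 3343 of 15346 in RC/RC:*Casp1*KO, each against WT. The groups did not overlap for 1 gene higher (*Pfkfb2*) and 1 lower (*Hk2*), beside 20.4% of all genes. The median over the 35 genes was -0.16, against -0.03 over all genes. Of all genes that passed, 62.1% were higher, and 82.0% with libraries scaled on their size alone.

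In RC/RC:*Casp1*KO against WT kidneys, *Eno1b* rose, *Eno1* fell and 33 genes did not pass. Of 15346 genes tested, 2.03% passed, 1.13% as higher and 0.893% as lower, and 13.9% did not overlap between the groups. Among the 35 genes 1 was higher without overlap (*Eno1b*) and 4 were lower without overlap (*Slc2a2*, *Aldoa*, *Eno1* and *Pdha1*). The median was -0.14 over the 35 genes and 0.01 over all genes. Of all genes that passed, 55.9% were higher, 79.8% with libraries scaled on their size alone and 36.3% with the length trend removed. The 3 comparisons share mice, so their values are set side by side and are not independent of each other.

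**Figure D2:**
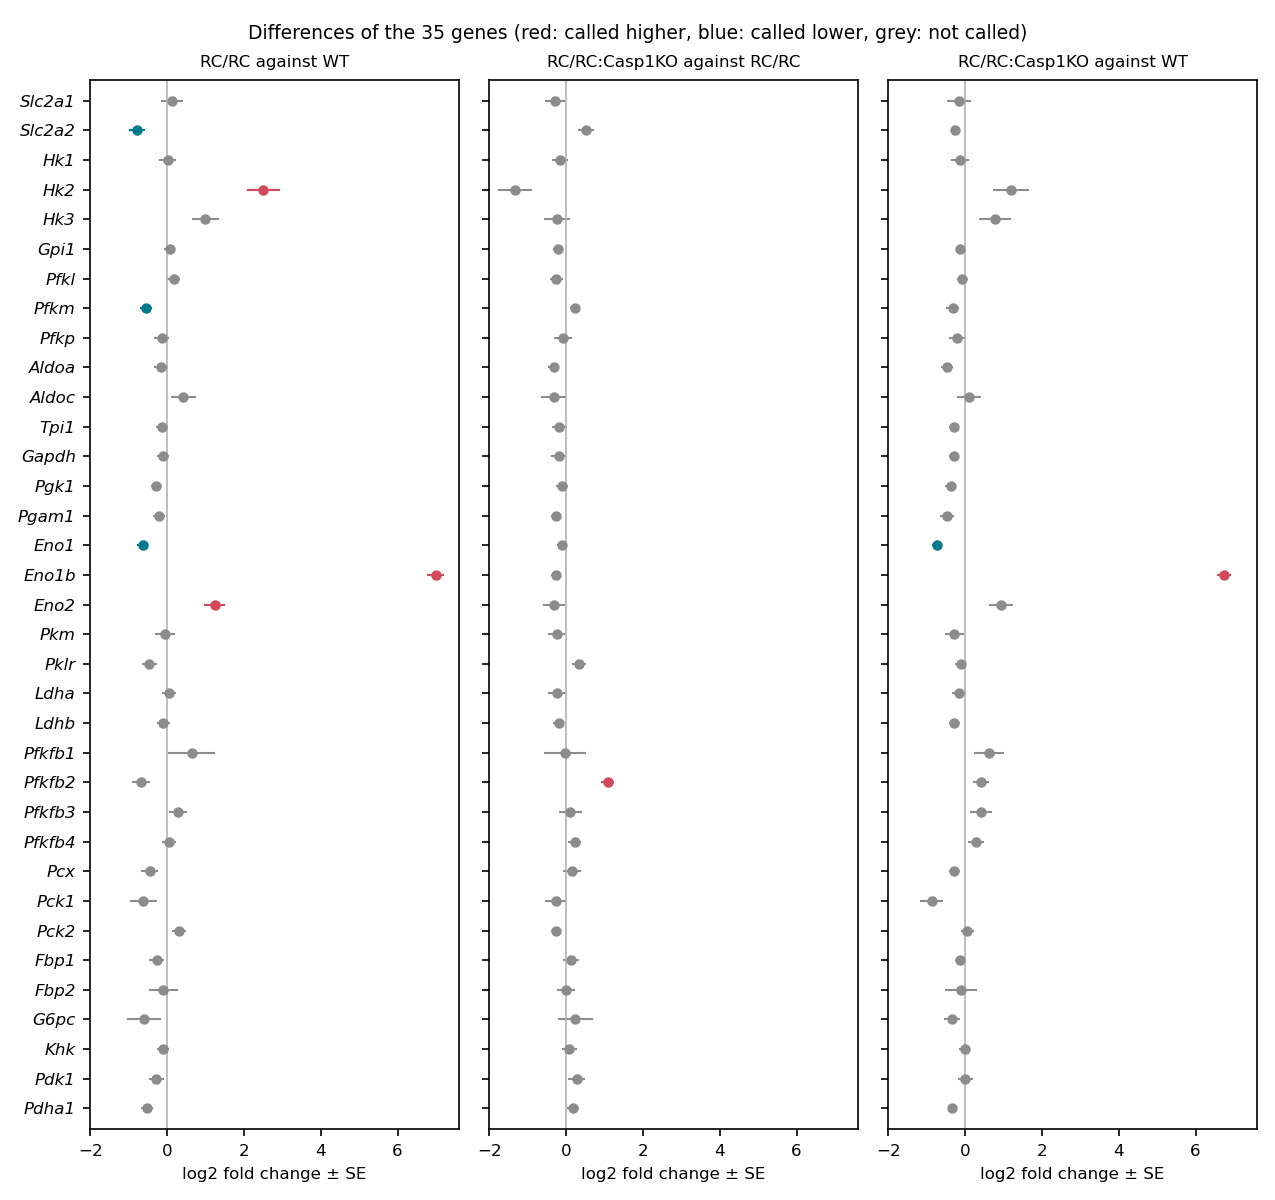
Log2 fold change of each of the 35 genes in the 3 comparisons, with bars of 1 standard error from edgeR, red for genes called higher, blue for genes called lower and grey for genes that did not pass. *Eno1b* lies at 6.99 and 6.74 in the comparisons with WT, and *Hk2* is the next farthest from 0 at 2.51 in RC/RC against WT.

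The glucose carriers divide the work of glucose transport between them. *Slc2a2* encodes GLUT2, the low-affinity carrier that lets glucose leave the proximal tubule cell for the blood (chr3:28697903-28728356, + strand, mm10). WT mice held 193, 193, 181 and 211 CPM, RC/RC mice 120, 69.1, 111 and 149, and RC/RC:*Casp1*KO mice 179, 137, 164 and 168. Every RC/RC mouse was below every WT mouse, and the RC/RC:*Casp1*KO mice overlapped the RC/RC mice while lying below the WT mice. *Slc2a2* was 1.74-fold lower in RC/RC than in WT (log2 fold change -0.80, SE 0.206, edgeR adjusted p = 0.0341). The call was lost when any 1 of the WT mice or mouse RC105 or RC140 was left out, with adjusted p from 0.0513 to 0.0907 and log2 fold changes from -0.86 to -0.76, and without mouse RC139 the value was -0.64. It was 0.52 (SE 0.215, adjusted p = 0.133) between the cystic groups and -0.26 in RC/RC:*Casp1*KO against WT (SE 0.105, adjusted p = 0.203). *Slc2a1*, which encodes the widely expressed carrier GLUT1, ranged from 31.6 to 79.4 CPM over the 12 mice with all groups overlapping, and its log2 fold change in RC/RC against WT was 0.13 (adjusted p = 0.786).

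Beside the fall of *Slc2a2*, 2 of 10 markers of the proximal tubule passed as lower in RC/RC by edgeR. At an unadjusted p below 0.05, 5 were lower and none higher, and DESeq2 called 4 lower. The 10 genes summed to 14702 ± 2438 CPM in WT, 9443 ± 3153 in RC/RC and 14151 ± 1742 in RC/RC:*Casp1*KO (SD, n = 4), with *Slc34a1*, the phosphate carrier, as the most abundant. Mouse RC143 at 13528 CPM was above mouse WT2 at 12050 and WT3 at 13375, so these sums overlapped. The genes that fell in RC/RC against WT by edgeR were *Cubn* and *Slc5a2*. Of the 10 log2 fold changes 9 were negative and 1 positive, with a median of -0.71. Between the cystic groups 2 of the 10 rose with the *Casp1* deletion by edgeR (*Lrp2* and *Cubn*) and the median was 0.49. DESeq2 called 4 higher there, and 4 were higher at an unadjusted p below 0.05. The part of cell composition in the *Slc2a2* values was not tested.

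Hexokinases commit glucose to the cell by phosphorylating it. *Hk1*, the main form in kidney, made up 98.8% ± 0.529 of hexokinase FPKM in WT and 96.2% ± 0.991 in RC/RC (SD, n = 4), and its own log2 fold change was 0.01 (adjusted p = 0.972). *Hk2*, the inducible hexokinase of muscle, fat and many growing tissues, held 1.38, 0.524, 1.21 and 0.612 CPM in WT mice, 3.82, 9.42, 4.24 and 3.82 in RC/RC mice and 1.89, 0.916, 3.64 and 2.15 in RC/RC:*Casp1*KO mice (chr6:82725025-82774454, - strand). Every RC/RC mouse was above every other mouse, with mouse RC139 the highest, and the RC/RC:*Casp1*KO mice overlapped the WT mice. *Hk2* was 5.68-fold higher in RC/RC than in WT (log2 fold change 2.51, SE 0.432, edgeR adjusted p = 0.00603). Mouse RC139 is also the library with the adipocyte genes, and without it the difference was 2.06 (adjusted p = 0.0112).

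*Hk2* in RC/RC:*Casp1*KO against RC/RC had a log2 fold change of -1.32 (SE 0.443, edgeR adjusted p = 0.0796), which did not pass although the groups did not overlap. The value was -0.88 (adjusted p = 0.219) without mouse RC139 and -1.70 (adjusted p = 0.0489) without mouse KO70, the mouse with the most *Hk2* in its group, and DESeq2 gave an adjusted p of 0.0191. *Hk3*, the hexokinase of white blood cells, stood at 0.878 ± 0.330 CPM in WT, 1.76 ± 0.401 in RC/RC and 1.50 ± 0.709 in RC/RC:*Casp1*KO, with 9 to 59 reads per mouse. The RC/RC and WT mice did not overlap, but the difference of 1.00 (SE 0.344, adjusted p = 0.0903) did not pass. Beside it, the 3 leukocyte markers (most abundant *Laptm5*) all rose in RC/RC and summed to 39.7 ± 6.46 CPM in WT, 92.0 ± 18.2 in RC/RC and 64.8 ± 35.2 in RC/RC:*Casp1*KO. Their part in the *Hk3* values was not tested.

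The 7 genes of upper glycolysis carry hexose phosphates to triose phosphates. Among them *Pfkm*, the muscle-type subunit of phosphofructokinase, was the only one that passed, as lower in RC/RC. WT mice held 89.4, 83.9, 54.8 and 66.1 CPM of *Pfkm*, RC/RC mice 56.9, 46.9, 46.7 and 49.1, and RC/RC:*Casp1*KO mice 49.2, 67.2, 54.5 and 63.6 (chr15:98092589-98132447, + strand). Mouse WT4 lay below mouse RC105, so the groups overlapped. The log2 fold change was -0.56 (SE 0.157, edgeR adjusted p = 0.0461), the call nearest the threshold of the 6. It was lost under 4 of 8 other settings and when mouse WT2, WT3 or WT6 or mouse RC139, RC140 or RC143 was left out (adjusted p from 0.0529 to 0.124, and -0.55 with 0.101 without mouse RC139). *Gm26513* overlaps *Pfkm* and matches 152 bases of it on the same strand. Scaled on library size alone, it stood at 0.217 CPM in WT, 0.32 in RC/RC and 0.582 in RC/RC:*Casp1*KO. How reads in the overlap were counted is not given in the sources used here.

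The share of *Pfkm* in phosphofructokinase FPKM was 41.1% ± 2.30 in WT, 31.7% ± 4.56 in RC/RC and 38.1% ± 1.44 in RC/RC:*Casp1*KO. The liver-type subunit *Pfkl* held 37.5% ± 1.96, 46.8% ± 4.97 and 41.0% ± 3.27 of it in the same order, and the platelet-type subunit *Pfkp* 21.4% ± 0.652, 21.4% ± 2.75 and 20.9% ± 3.10. *Pfkl* and *Pfkp* passed in no comparison. *Gpi1* (glucose-6-phosphate isomerase), *Tpi1* (triosephosphate isomerase), *Aldoa* and *Aldoc* did not pass either. *Aldoa*, the aldolase of muscle and most dividing cells, averaged 1054 ± 209 CPM in WT, 949 ± 141 in RC/RC and 761 ± 70.7 in RC/RC:*Casp1*KO, and the last group lay wholly below the WT mice without the difference passing by edgeR (-0.47, SE 0.154, adjusted p = 0.142), although it did by DESeq2 (adjusted p = 0.04).

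Enolase, which turns phosphoglycerate into phosphoenolpyruvate, was the step that held the largest fold change of the 35 genes. *Eno1*, the form found in most tissues, held 852, 895, 680 and 769 CPM in WT mice, 465, 531, 545 and 508 in RC/RC mice and 490, 540, 411 and 480 in RC/RC:*Casp1*KO mice (chr4:150236721-150248879, + strand). Every WT mouse was above every mouse of the other groups, which overlapped each other. *Eno1* was 1.56-fold lower in RC/RC than in WT (log2 fold change -0.64, SE 0.135, edgeR adjusted p = 0.0143), a call that was kept without any 1 mouse. Its log2 fold change in RC/RC:*Casp1*KO against WT was -0.73 (SE 0.128, adjusted p = 0.0275), and that call was lost without mouse WT2, WT3 or WT6 or mouse KO70 or KO105 (adjusted p from 0.0734 to 0.0902, and -0.66 with 0.0767 without mouse KO70). Between the cystic groups it was -0.10 (SE 0.134, adjusted p = 0.627).

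*Eno1b*, a retrotransposed copy of *Eno1* on chromosome 18, went the other way. WT mice held 0.763, 1.29, 1.51 and 1.08 CPM (16 to 30 reads per mouse), RC/RC mice 127, 165, 158 and 142, and RC/RC:*Casp1*KO mice 136, 133, 109 and 118. All 8 mice with the RC allele were above all 4 WT mice, with no intermediate value. The sources used here do not state whether WT and RC/RC mice shared a breeding line, so allele and line cannot be told apart. *Eno1b* was 127-fold higher in RC/RC than in WT, a log2 fold change of 6.99 (SE 0.212, adjusted p = 2.85e-07 by edgeR). It was 6.74 (SE 0.192, adjusted p = 4.07e-07) in RC/RC:*Casp1*KO against WT and -0.27 (SE 0.128, adjusted p = 0.187) between the cystic groups. By adjusted p it ranked 1 of 15243 genes in RC/RC against WT and 2 of 15346 in RC/RC:*Casp1*KO against WT. Of the genes tested with positions within 1000 kb of *Eno1b*, 2 in each of these comparisons, none passed.

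*Eno1* and *Eno1b* can share reads. The coding sequence of *Eno1b* was 99.1% identical to an *Eno1* transcript over 1306 aligned bases, the longest match of an *Eno1* coding sequence to *Eno1b* was 98.9% identical over 1417 bases, and how the counting treated reads that match both is not given in the sources used here. The sum of both genes was 853, 896, 682 and 770 CPM in WT mice, 592, 696, 703 and 650 in RC/RC mice and 626, 673, 520 and 598 in RC/RC:*Casp1*KO mice. On the sum the WT mice overlapped the RC/RC mice, the RC/RC:*Casp1*KO mice were all lower than the WT mice, and neither difference passed (log2 fold change -0.28, adjusted p = 0.212 in RC/RC against WT, and -0.40, adjusted p = 0.133 in RC/RC:*Casp1*KO against WT, by edgeR on the added counts). Adding a gene that is higher lessens a fall by construction, and how reads were divided between the copies was not tested. Another near copy, *Gm4735*, chosen after its values were seen, is 99.8% identical to *Eno1b* over 1302 bases. With scaling on library size alone, unlike the CPM values above, it averaged 0.645 CPM in WT, 5.57 in RC/RC and 6.14 in RC/RC:*Casp1*KO. Of enolase FPKM, *Eno1* held 98.7% in WT, 73.9% in RC/RC and 75.3% in RC/RC:*Casp1*KO, and *Eno1b* 0.169%, 24.5% and 22.5%.

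*Eno2*, the enolase named for neurons and endocrine cells, is distinct enough in sequence to have no near copy by the same search (chr6:124760053-124769673, - strand). WT mice held 1.86, 0.952, 1.66 and 1.70 CPM, RC/RC mice 3.40, 4.76, 3.76 and 2.70, and RC/RC:*Casp1*KO mice 1.72, 2.83, 3.87 and 3.38. Every RC/RC mouse was above every WT mouse, and mouse KO42 lay within the WT range. *Eno2* was 2.36-fold higher in RC/RC than in WT (log2 fold change 1.24, SE 0.280, edgeR adjusted p = 0.019), on 20 to 39 reads per WT mouse and 63 to 90 per RC/RC mouse. Without mouse RC139 the value was 1.06 (adjusted p = 0.0589) and without mouse RC140 it was 1.23 (adjusted p = 0.0501). *Eno2* made up under 1% of enolase FPKM in every mouse.

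**Figure D3:**
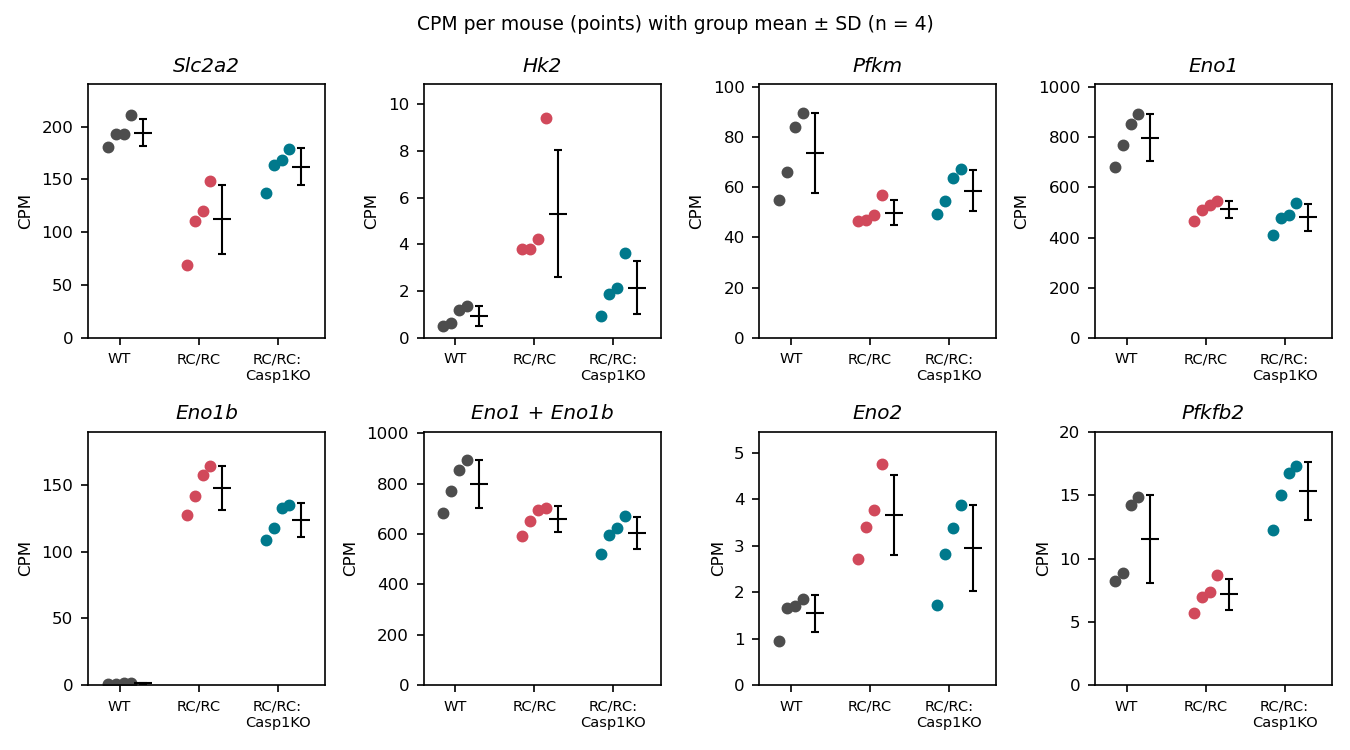
CPM (linear axis from 0) of the genes that passed in any comparison and of *Eno1* and *Eno1b* added, with 1 point per mouse in rising order and the group mean ± SD beside them (n = 4). *Slc2a2* and *Eno1* lie lower and *Hk2*, *Eno2* and *Eno1b* higher in all 4 RC/RC mice than in any WT mouse, whereas *Pfkm* overlaps and *Pfkfb2* separates only RC/RC:*Casp1*KO from RC/RC.

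**Figure D4:**
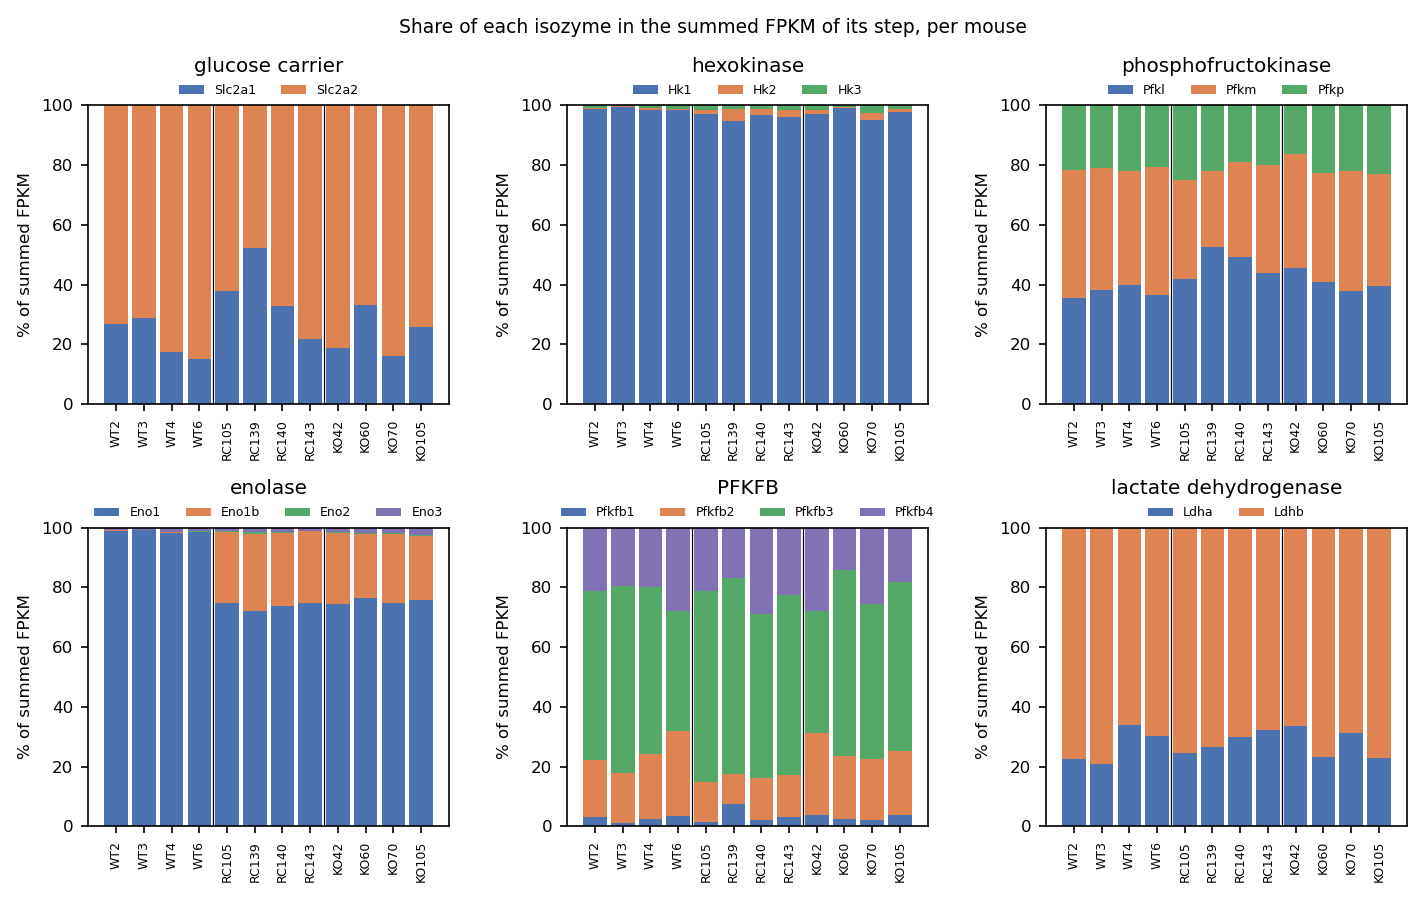
Share of each isozyme in the summed FPKM of its step, in percent, with 1 stacked bar per mouse for 6 steps and thin lines between the groups. *Eno1b* takes 24.5% of enolase on average in RC/RC and 22.5% in RC/RC:*Casp1*KO against 0.169% in WT, and *Hk1* and *Ldhb* are the main form of their steps in every mouse. *Eno1* and *Eno1b* can share reads, and how reads were divided between them was not tested.

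The remaining genes of lower glycolysis did not pass in any comparison. *Gapdh*, which makes the NADH of the pathway and served the study as reference transcript and loading control, averaged 1882 ± 125 CPM in WT, 1747 ± 279 in RC/RC and 1536 ± 225 in RC/RC:*Casp1*KO. Its log2 fold changes were -0.11 (SE 0.160) in RC/RC against WT, -0.20 (SE 0.184) between the cystic groups and -0.29 in RC/RC:*Casp1*KO against WT, with adjusted p of 0.689, 0.491 and 0.238 by edgeR. The interval of 1.96 SE in RC/RC against WT ran from -0.42 to 0.21, so a difference within it could not be told from none. *Pgk1*, *Pgam1* and the pyruvate kinases *Pkm* and *Pklr* had log2 fold changes of -0.28, -0.21, -0.04 and -0.46 in the same comparison. The search found 100 genes in the table with stretches nearly identical to *Gapdh*, and they held 1.34% to 3.79% of the reads of *Gapdh* and these genes together in any mouse. The most abundant of them, *Iffo1*, is a separate gene that matches 300 bases on the opposite strand. Scaled on library size alone, it stood at 27.6 CPM in WT, 19.4 in RC/RC and 37.5 in RC/RC:*Casp1*KO. No other of these genes reached 3 CPM in a group's mean on that scale.

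*Pkm*, the pyruvate kinase of non-hepatic tissues, made up 92.4% ± 1.30 of pyruvate kinase FPKM in WT, 93.9% ± 2.82 in RC/RC and 91.5% ± 2.01 in RC/RC:*Casp1*KO, and the liver and red cell form *Pklr*, which the proximal tubule also makes, held the rest. The counts do not separate the splice forms of *Pkm*. Of the lactate dehydrogenase subunits, *Ldhb*, the heart type, held 73.2% ± 6.17 of FPKM in WT, 71.7% ± 3.42 in RC/RC and 72.2% ± 5.43 in RC/RC:*Casp1*KO. *Ldha*, the muscle type that favours lactate formation, had a log2 fold change of 0.06 (SE 0.184, adjusted p = 0.864) in RC/RC against WT and -0.24 (SE 0.229, adjusted p = 0.504) in RC/RC:*Casp1*KO against RC/RC.

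The PFKFB enzymes make and break fructose 2,6-bisphosphate, the signal that switches phosphofructokinase on. *Pfkfb2*, the form known from heart and kidney, was the single member that rose in RC/RC:*Casp1*KO against RC/RC kidneys (chr1:130689182-130729253, - strand). WT mice held 8.86, 8.24, 14.2 and 14.9 CPM, RC/RC mice 8.68, 6.99, 5.69 and 7.33, and RC/RC:*Casp1*KO mice 12.3, 17.3, 15.1 and 16.8. Every RC/RC:*Casp1*KO mouse was above every RC/RC mouse, and both groups overlapped the WT mice. *Pfkfb2* was 2.12-fold higher in RC/RC:*Casp1*KO than in RC/RC (log2 fold change 1.09, SE 0.167, edgeR adjusted p = 0.00776), and it passed without any 1 mouse and under all 8 other settings. A gene listed as *PFKFB2* overlaps it, at 0.0207 CPM in RC/RC and 0.221 in RC/RC:*Casp1*KO when scaled on library size alone. The value of *Pfkfb2* in RC/RC against WT, -0.69 (SE 0.235, adjusted p = 0.0881), passed under DESeq2 (adjusted p = 0.0347). *Pfkfb3*, the most abundant PFKFB gene, stood at 32.3 ± 7.52 CPM in WT, 39.5 ± 11.3 in RC/RC and 42.7 ± 15.7 in RC/RC:*Casp1*KO, and it, *Pfkfb1* and *Pfkfb4* passed in no comparison.

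None of the 6 gluconeogenic genes passed in any comparison by edgeR, and at an unadjusted p below 0.05 only *Pck1* did, as lower in RC/RC:*Casp1*KO against WT, the comparison in which DESeq2 also called it (adjusted p = 0.0368). In RC/RC against WT 5 of the 6 had negative log2 fold changes, with a median of -0.37. *Pck1*, cytosolic phosphoenolpyruvate carboxykinase, the enzyme that sets the pace of glucose synthesis, ranged from 1491 to 3826 CPM in WT, from 835 to 2114 in RC/RC and from 935 to 1547 in RC/RC:*Casp1*KO. Its log2 fold changes were -0.62 (SE 0.355, adjusted p = 0.277) in RC/RC and -0.87 (SE 0.304, adjusted p = 0.156) in RC/RC:*Casp1*KO against WT. *G6pc*, the catalytic subunit of glucose-6-phosphatase that releases free glucose, ranged from 259 to 444 CPM in WT and from 59.8 to 336 in RC/RC, where mouse RC139 was the lowest (-0.60, SE 0.444, adjusted p = 0.398, and -0.29, adjusted p = 0.551, without that mouse). *Fbp1* (fructose bisphosphatase) and *Pcx* (pyruvate carboxylase) had -0.28 and -0.45 in the same comparison. *Pcx* passed as lower by edgeR there when mouse RC143 was left out (adjusted p = 0.0377). The spread between mice left wide intervals, from -1.31 to 0.08 for *Pck1* and from -1.47 to 0.28 for *G6pc*. For these genes no difference was thus detectable in RC/RC against WT, rather than none present.

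*Khk*, which phosphorylates fructose, averaged 572 ± 40.6 CPM in WT, 531 ± 85.4 in RC/RC and 567 ± 112 in RC/RC:*Casp1*KO and passed in no comparison. A gene on the opposite strand, *Cgref1*, matches 160 bases of its sequence, and without a known strand setting reads from that stretch cannot be told apart. *Pdha1*, the catalytic subunit of pyruvate dehydrogenase, held 322.6 to 397.9 CPM in WT, 196 to 302 in RC/RC and 254 to 296 in RC/RC:*Casp1*KO. Both cystic groups lay wholly below the WT mice, but neither difference passed (-0.52, SE 0.155, edgeR adjusted p = 0.057 in RC/RC, and -0.33, adjusted p = 0.128 in RC/RC:*Casp1*KO). Both passed under DESeq2 (adjusted p = 0.0099 and 0.019). *Pdk1*, a kinase that switches pyruvate dehydrogenase off, had -0.29 in RC/RC and 0.00 in RC/RC:*Casp1*KO against WT.

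Promoters of 5 of the called genes are shown, each at the most upstream RefSeq start of its gene, because enzymes of this pathway are textbook targets of the hypoxia-inducible factors, whose core motif is ACGTG or GCGTG, and of the E-box factors of the MYC and ChREBP kind, whose motif is CACGTG. The motifs were searched on both strands in the 250 bases before each RefSeq start, and CACGTG contains ACGTG, so a match to the longer motif is also one to the shorter. An entry was found for 34 of the 35 genes, with *Eno1b* the exception, and these had 54 promoters on GRCm38.p6, the assembly behind mm10. ACGTG stood in 18 of the 54 (33.3%) and in 16.6% of all 32841 RefSeq promoters, GCGTG in 23 (42.6%) against 28.2%, and CACGTG in 7 (13.0%) against 6.02%. Either of the hypoxia motifs stood in 36 of 54 (66.7%), beside 38.6% of all promoters. Windows of neighbouring starts of *Aldoa*, *Eno1* and *Pfkm* overlap, so the same match can count in more than 1 of the 54. All RefSeq promoters were not matched to the 54 for GC content, and its part in these shares was not tested. A match describes the letters and not a bound site, and matches were found both among genes that passed and among genes that did not. In the sequences below capitals mark motif matches, on the strand of the gene or as their reverse complement:
*Slc2a2* (chr3:28697653-28697902, + strand): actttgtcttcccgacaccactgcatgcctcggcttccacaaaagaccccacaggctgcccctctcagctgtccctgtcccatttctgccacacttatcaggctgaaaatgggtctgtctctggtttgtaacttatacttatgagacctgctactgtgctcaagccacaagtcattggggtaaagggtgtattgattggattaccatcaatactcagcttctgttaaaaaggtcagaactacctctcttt
*Hk2* (chr6:82774455-82774704, - strand): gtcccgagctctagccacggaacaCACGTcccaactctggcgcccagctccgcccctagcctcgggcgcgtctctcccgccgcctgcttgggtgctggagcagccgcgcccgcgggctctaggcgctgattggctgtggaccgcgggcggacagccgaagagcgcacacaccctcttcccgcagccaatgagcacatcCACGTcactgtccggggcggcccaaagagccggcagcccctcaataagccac
*Eno1* (chr4:150236458-150236707, + strand): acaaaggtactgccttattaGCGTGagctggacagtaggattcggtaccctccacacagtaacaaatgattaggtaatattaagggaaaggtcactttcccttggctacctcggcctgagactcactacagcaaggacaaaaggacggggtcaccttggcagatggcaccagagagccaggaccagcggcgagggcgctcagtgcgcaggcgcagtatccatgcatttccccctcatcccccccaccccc
*Eno2* (chr6:124769674-124769923, - strand): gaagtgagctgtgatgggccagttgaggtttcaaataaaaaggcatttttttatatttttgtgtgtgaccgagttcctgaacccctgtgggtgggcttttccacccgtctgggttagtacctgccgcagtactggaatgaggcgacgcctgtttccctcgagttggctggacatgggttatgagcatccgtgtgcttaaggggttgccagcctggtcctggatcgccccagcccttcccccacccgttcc
*Pfkfb2* (chr1:130716049-130716298, - strand): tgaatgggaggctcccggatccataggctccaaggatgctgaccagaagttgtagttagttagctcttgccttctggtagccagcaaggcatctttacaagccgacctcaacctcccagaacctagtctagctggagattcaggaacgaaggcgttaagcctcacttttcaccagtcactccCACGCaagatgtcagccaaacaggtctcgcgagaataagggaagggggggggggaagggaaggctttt
The *Hk2* promoter held 2 matches to ACGTG, that of *Eno1* printed here 1 match to GCGTG and that of *Pfkfb2* 1 match to GCGTG, while those of *Slc2a2* and *Eno2* held none. Another *Pfkfb2* start just downstream had 4 matches to the hypoxia motifs in its 250 bases, of which 2 were a single CACGTG read on both strands. The other *Eno1* starts, number 2 and 3 in RefSeq order, had 2 matches to GCGTG each. The 4 promoters of *Pfkm*, which are not printed, held 2, 2, 1 and 0 matches to the hypoxia motifs, and the first of them held CACGTG.

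The rest of the pathway was taken from lists of genes around it. None of the 12 tested of 16 other enzymes of the pathway passed in RC/RC against WT or in RC/RC:*Casp1*KO against WT, and in RC/RC:*Casp1*KO against RC/RC 1 rose. That was *Gapdhs*, the glyceraldehyde-3-phosphate dehydrogenase known from sperm, at 1.79 ± 0.952 CPM in WT, 1.37 ± 0.290 in RC/RC and 3.93 ± 0.881 in RC/RC:*Casp1*KO (log2 fold change 1.50, SE 0.250, edgeR adjusted p = 0.010). Of 12 genes for the uptake of pyruvate into mitochondria and the pyruvate dehydrogenase complex, *Mpc1*, a subunit of the mitochondrial pyruvate carrier, alone passed by edgeR, as higher in RC/RC:*Casp1*KO against RC/RC (0.90, SE 0.160, adjusted p = 0.013), where DESeq2 also called *Pdpr* higher. Its level was 10.4 ± 3.18 CPM in WT, 7.73 ± 1.21 in RC/RC and 14.6 ± 2.03 in RC/RC:*Casp1*KO. In RC/RC against WT the enzymes list had none higher and 3 lower at an unadjusted p below 0.05 and the pyruvate list 1 higher and 3 lower, and DESeq2 called 2 and 1 lower. The same lists in RC/RC:*Casp1*KO against WT had 2 higher and 4 lower and 1 higher and 5 lower unadjusted, with 1 higher and 2 lower, and 4 lower, by DESeq2. The 5 genes of fructose and polyol metabolism had no call in RC/RC against WT (none at an unadjusted p below 0.05, none by DESeq2) or between the cystic groups (1 higher unadjusted, none by DESeq2). Of these 5 genes 1, the fructose carrier *Slc2a5*, rose in RC/RC:*Casp1*KO against WT.

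Among 18 further carriers of hexoses and monocarboxylates, 2 rose and 4 fell in RC/RC against WT by edgeR, with a median of -0.29, and DESeq2 called 3 higher and 6 lower. Those that rose were *Slc2a6* (log2 fold change 1.82, SE 0.348, edgeR adjusted p = 0.00949) and *Slc2a3*, which encodes the high-affinity carrier GLUT3 (1.26, SE 0.276, adjusted p = 0.0168), both under 4 CPM on average in every group. Among those that fell were *Slc5a2*, the SGLT2 carrier that recovers glucose from the filtrate (-1.23, SE 0.281, adjusted p = 0.0199), and *Slc2a9*, a urate carrier (-1.03, SE 0.233, adjusted p = 0.0188). *Slc5a2* is also a proximal tubule marker in the list above and went from 469 ± 50.7 CPM in WT to 200 ± 83.4 in RC/RC, with 388 ± 14.0 in RC/RC:*Casp1*KO. Between the cystic groups none of the 18 passed by edgeR, with 4 higher and 2 lower at an unadjusted p below 0.05 and 2 higher and 1 lower by DESeq2. Against WT, 1 rose in RC/RC:*Casp1*KO, the fructose carrier *Slc2a5* (0.90, SE 0.131, adjusted p = 0.0134), from 97.3 ± 16.8 to 182 ± 15.3 CPM. The others that fell were *Slc16a1* and *Slc16a7*, named here after their values were seen. *Slc16a7* (adjusted p = 0.0496) was lost with scaling on library size alone (0.0847), with at least 10 counts in every mouse (0.0558), with limma (0.0838) and without mouse WT2, WT3, WT6, RC139, RC140 or RC143 (from 0.0584 to 0.133). The calls on *Slc2a9* and *Slc5a2* were lost without mouse WT6 (adjusted p = 0.0528 and 0.058) or mouse RC140 (0.0573 and 0.064), that on *Slc2a3* without mouse WT3 (0.0502) and that on *Slc2a5* without mouse WT6 (0.0507).

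The oxidative and non-oxidative pentose phosphate pathway draws on glucose 6-phosphate. Of its 8 genes none passed in RC/RC against WT by edgeR (1 higher at an unadjusted p below 0.05). In RC/RC:*Casp1*KO against RC/RC all 8 had negative log2 fold changes, with a median of -0.29. Of these, 4 had an unadjusted p below 0.05, beside 4889 of all 15428 genes in either direction, and none passed. DESeq2 called none in either comparison. *Pgd*, 6-phosphogluconate dehydrogenase, fell in RC/RC:*Casp1*KO against WT (-0.57, SE 0.102, adjusted p = 0.0281), a call lost without mouse WT2, WT3 or WT6 or mouse KO60 or KO105 (adjusted p from 0.0529 to 0.0965), with scaling on library size alone (0.0606) and with limma (0.0568). None of 11 genes of glycogen metabolism passed in RC/RC:*Casp1*KO against WT (2 lower at an unadjusted p below 0.05, 2 lower by DESeq2). None of the 11 genes that bring glutamine and lactate carbon to gluconeogenesis passed in any comparison by edgeR, with 1 lower at an unadjusted p below 0.05 in each comparison with WT and none between the cystic groups (none by DESeq2 in any comparison).

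The hypoxia pathway and its targets outside glycolysis held 16 genes. None rose in RC/RC against WT and 2 fell, the endothelial growth factor *Vegfa* (-0.79, SE 0.195, edgeR adjusted p = 0.0276) and *Ndrg1* (-0.99, SE 0.220, adjusted p = 0.0179), and in RC/RC:*Casp1*KO against RC/RC *Vegfa* (0.96, SE 0.126, adjusted p = 0.0041) and *Arnt*, the shared partner of the hypoxia-inducible factors (0.41, SE 0.111, adjusted p = 0.0434), rose. *Vegfa* stood at 262 ± 68.9 CPM in WT, 151 ± 18.2 in RC/RC and 297 ± 18.1 in RC/RC:*Casp1*KO. The fall of *Vegfa* was lost without mouse WT4 or WT6 or mouse RC139 or RC140 (adjusted p from 0.0575 to 0.0837), that of *Ndrg1* without mouse WT6 or mouse RC139 or RC140 (from 0.051 to 0.0576), and the rise of *Arnt* without any 1 mouse other than mouse RC105 (from 0.0697 to 0.118). The fall of *Vegfa* was also lost with scaling on library size alone (0.0501) and limma (0.0551), and the rise of *Arnt* with both of these (0.0765 and 0.0746), with all genes of at least 1 count kept (0.0653) and with the length trend removed (0.0566). None of the 16 passed in RC/RC:*Casp1*KO against WT (2 higher and 5 lower at an unadjusted p below 0.05, 2 lower by DESeq2).

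Of 21 transcription factors and coactivators known to act on the pathway, 1 rose and 3 fell in RC/RC against WT, and 4 rose and 1 fell in RC/RC:*Casp1*KO against RC/RC. *Myc* rose in RC/RC (1.45, SE 0.273, adjusted p = 0.00899) and fell in RC/RC:*Casp1*KO against RC/RC (-1.23, SE 0.248, adjusted p = 0.0191), with 5.71 ± 1.64, 15.6 ± 4.57 and 6.69 ± 1.55 CPM in the 3 groups. The fall was lost without mouse RC139 (-1.07, adjusted p = 0.0512) or RC140 (-1.10, adjusted p = 0.0601).

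*Ppara*, a regulator of fatty acid use, fell in RC/RC (-0.90, SE 0.186, edgeR adjusted p = 0.013) from 88.7 ± 10.1 to 47.4 ± 12 CPM. It rose in RC/RC:*Casp1*KO against RC/RC (0.66, SE 0.176, adjusted p = 0.0421) to 75.8 ± 2.48 CPM, a call lost without mouse RC140 or any 1 of the RC/RC:*Casp1*KO mice (adjusted p from 0.0659 to 0.113). *Mlxipl*, which encodes the glucose-sensing factor ChREBP, rose in RC/RC:*Casp1*KO against RC/RC (1.50, SE 0.209, adjusted p = 0.00539), from 62.3 ± 15.5 to 177 ± 37.8 CPM. *Cebpb* fell in RC/RC:*Casp1*KO against WT (-1.30, SE 0.221, adjusted p = 0.025), a call lost without mouse WT2 or mouse KO60 or KO105 (from 0.0608 to 0.0818) and with a dispersion from all 12 mice (0.0503). These genes were named by the size of their change among those that passed without overlap, and no relation between them and the enzymes was tested.

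The makeup of the tissue differed between the groups along with these values. All 5 injured tubule markers, all 4 fibroblast markers (most abundant *Col3a1*) and all 4 markers of proliferating cells (most abundant *Mki67*) rose in RC/RC against WT, as did the macrophage markers *Adgre1*, *Cd68*, *C1qa* and *C1qb*, while the most abundant of that list, *Csf1r*, did not pass. Injured tubule markers summed to 26.1, 17.0, 18.9 and 24.0 CPM in WT mice, 248, 214, 173 and 152 in RC/RC mice and 31.7, 33.4, 169 and 49.1 in RC/RC:*Casp1*KO mice. Fibroblast markers summed to 147 ± 24.9 CPM in WT, 832 ± 327 in RC/RC and 287 ± 121 in RC/RC:*Casp1*KO, and 3 of the 4 fell in RC/RC:*Casp1*KO against RC/RC. The highest of these sums were 1296 CPM in mouse RC139, against 535 to 791 in the other RC/RC mice, and 456 in mouse KO70, against 196 to 294 in the others of its group. Both markers of the distal convoluted tubule (most abundant *Slc12a3*), a segment that uses glucose, fell in RC/RC, from 1004 ± 154 to 250 ± 115 CPM, with 666 ± 248 in RC/RC:*Casp1*KO. All 5 erythroid markers (most abundant *Hbb-bs*) fell in RC/RC, from 712 ± 189 to 228 ± 68.8 CPM, and 4 of the 5 fell in RC/RC:*Casp1*KO against WT, to 304 ± 81.4 CPM.

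The principal cell markers (most abundant *Aqp2*) summed to 638 ± 177, 1130 ± 193 and 853 ± 92.2 CPM in the WT, the RC/RC and the *Casp1*-deficient group, and those of the thick ascending limb (most abundant *Umod*) to 5319 ± 1182, 3734 ± 895 and 4528 ± 1167. No marker of either list passed by edgeR in RC/RC against WT, where 4 principal cell markers were higher and 1 of the thick ascending limb lower at an unadjusted p below 0.05 and DESeq2 called 2 principal cell markers higher. For intercalated cells (*Slc26a4*) the sums were 334 ± 152, 203 ± 25.6 and 234 ± 57.2 CPM, for podocytes (*Podxl*) 425 ± 91.6, 329 ± 51.4 and 346 ± 42.1, with *Nphs1* lower in RC/RC against WT by edgeR (-0.62, SE 0.164, adjusted p = 0.0372), and for endothelium (*Kdr*) 310 ± 30.2, 375 ± 61.7 and 299 ± 29.3. Lymphocyte markers summed to 1.95 ± 0.399, 7.20 ± 2.46 and 4.05 ± 2.22 CPM for T cells (*Cd3e*) and 7.20 ± 3.13, 174 ± 45.3 and 77.4 ± 45.0 for B and plasma cells (*Jchain*), and all 3 of each list rose in RC/RC against WT. Neutrophil (*S100a9*) and skeletal muscle (*Mylpf*) markers stayed under 2 CPM in every mouse and adrenal markers (*Star*) at or below 5.39, with *Ly6g*, *Ckm*, *Myh4*, *Cyp11a1* and *Cyp11b1* at or under the floor of 3 counts in every mouse. The labelled tissue is thus matched by its own markers, and the part of any of these cell types in the values of the 35 genes was not tested.

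**Figure D5:**
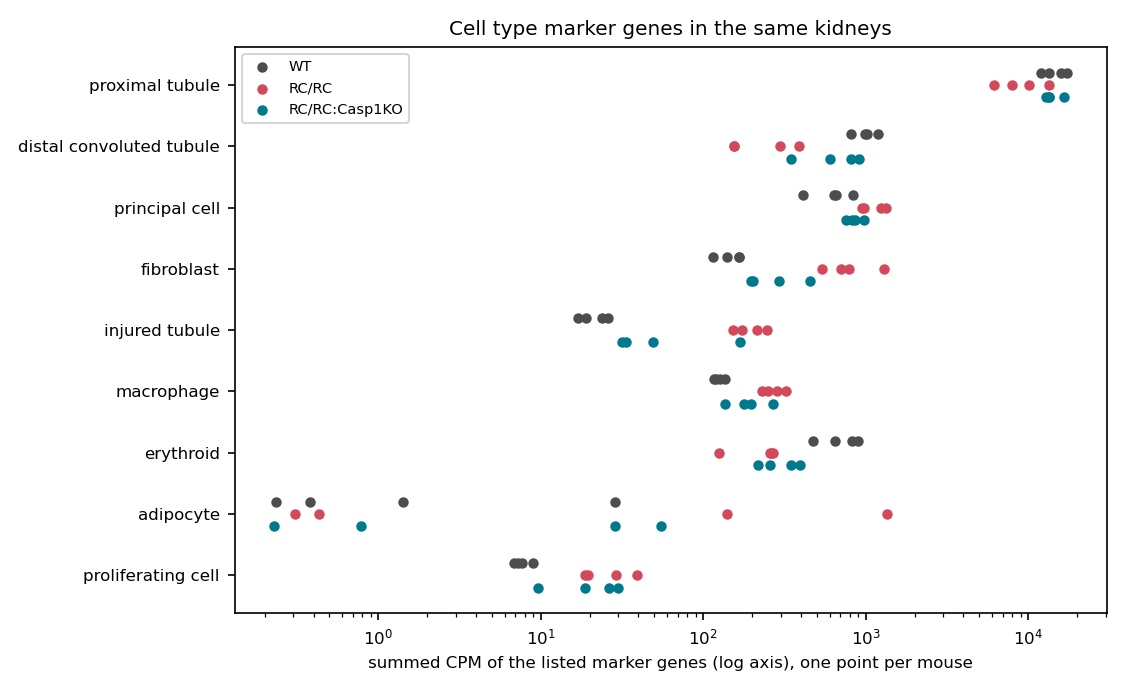
Summed CPM of cell type marker lists in each of the 12 mice (log scale), with 1 point per mouse coloured by group. Injured tubule and fibroblast markers are higher in all 4 RC/RC mice than in any WT mouse, and mouse RC139 stands apart in the adipocyte list at 1358.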

How the data were processed

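Poly(A) RNA from 12 mouse kidneys was sequenced. The authors deposited whole read counts per gene, with base calling by CASAVA 1.8 and alignment by STAR to mm10 per the labels. The counting tool, its strand setting and the annotation are not given in the sources used here. The deposited table also holds the authors' FPKM values, group means, fold changes and p-values, which were not used. Count columns were assigned to groups by name. They carry mouse numbers that match no label, so neither sex nor replicate number could be attached from the labels, and sex was not read from the counts. Whether mice of a group share a litter is not stated, so p-values measure the spread between these mice.

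Counts were normalised with TMM factors and filtered with filterByExpr in edgeR 4.0.16 (R 4.3.3) separately for each comparison of 2 groups, and tested by quasi-likelihood with Benjamini-Hochberg adjustment over all genes tested and a threshold of 0.05, after a test on simulated data. In each of the 18 pairs of mice of 1 group the counts differed beyond sampling noise. CPM is the count scaled by the TMM library size, or by library size alone where stated. FPKM was computed from counts and the deposited gene lengths. A floor of 3 counts and all intervals cover counting or fitted error only. Intervals use 1.96 SE, a normal quantile, and with 4 mice per group they are narrower than the edgeR test implies. Alternatives were DESeq2 1.42.0, limma 3.58.1 on log2(FPKM + 1), other scalings and filters, a dispersion from all 12 mice, a trend over gene length and leaving out each mouse in turn. Near copies were sought with BLAST 2.17.0 (at least 95% identity over 100 bases of coding sequence). Promoters are from RefSeq, GRCm38.p6.

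The 35 genes and all lists were chosen with earlier results of these data known. Named were all 35 genes, *Casp1*, *Pkd1*, the most abundant gene of each cell type list and, in each other list and comparison, up to 2 genes in each direction with the largest change among those that passed without overlap between groups. Some genes this rule would name are not reported here. Older symbols were matched through RefSeq (*Jchain* is listed as *Igj*).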

Additional observations from a re-analysis of the deposited data

Results flagged for a closer look

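For the 35 genes in the 3 groups of 4 mice, there were 3 cases in which 1 mouse stood farther from the others than Dixon's 95% value of 0.829 allows, and chance flags about 1 in 20 groups. *Hk2* was at 9.42 CPM in mouse RC139 against 3.82 to 4.24 in the other RC/RC mice, and that mouse also held the 1358 CPM of adipocyte markers. *Aldoc*, the brain-type aldolase, was at 10.6 CPM in mouse RC143 against 25.7 to 27.7 in the other mice of its group. *Pfkfb1*, the liver-type PFKFB gene, was at 1.86 CPM in mouse KO105 against 1.01 to 1.11 in the others, on 19 to 39 reads per mouse. The causes were not tested.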

How the results depend on the processing

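No paired analysis was possible because the count columns carry mouse numbers that no label gives, so the replicate numbers of the labels could not be attached to them. No result changed direction under any alternative after being called. The number of genes that passed in RC/RC against WT went from 1971 to 3027 with DESeq2, and from 1162 to 2440 when 1 mouse was left out. In RC/RC:*Casp1*KO against RC/RC it went from 1797 to 3172 with DESeq2, 993 with scaling on library size alone, 1052 with limma on log2(FPKM + 1) and 438 to 2789 without 1 mouse. In RC/RC:*Casp1*KO against WT it went from 311 to 1387 with DESeq2, 167 with at least 10 counts in every mouse and 108 to 547 without 1 mouse. Among the 35 genes, those lower in RC/RC against WT numbered 5 in place of 3 with DESeq2, with a dispersion from all 12 mice and with the length trend removed (*Pfkfb2* and *Pdha1* added), and 1 to 4 without 1 mouse. Those lower in RC/RC:*Casp1*KO against RC/RC numbered 1 with DESeq2 and 0 to 1 without 1 mouse, and in RC/RC:*Casp1*KO against WT 4 with DESeq2 (*Aldoa*, *Pck1* and *Pdha1* beside *Eno1*) and 0 to 1 without 1 mouse. The numbers of members that were higher stayed within 1.5 times of 3, 1 and 1. In RC/RC:*Casp1*KO against WT the median log2 fold change of all genes was 0.01, and 0.14 with scaling on library size alone and -0.11 with the length trend removed, and in RC/RC against WT the last moved it from -0.02 to -0.13. The causes of these shifts were not tested. With 11 to 29 reads of *Hk2* and 16 to 30 of *Eno1b* per WT mouse, the levels of these genes in WT are set by few reads.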
